A study of Mus musculus with 6 samples.

Results

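The 10 genes described here encode the MHC class I antigen presentation machinery: the heavy chain genes H2-K1, H2-D1 and H2-T23, the light chain gene B2m, the peptide transporter genes Tap1 and Tap2, the loading factor gene Tapbp, the transcriptional activator gene Nlrc5, and the immunoproteasome subunit genes Psmb8 and Psmb9. They were taken by gene symbol from a table of 54146 genes, and each symbol matched 1 row. Spheroids of D2A1 mammary tumor cells, a line of mouse origin, were kept in Matrigel under DMEM and fetal bovine serum with recombinant SLURP1 protein (rSLURP1, 3 libraries) or recombinant GST as control protein (rGST, 3 libraries). Both proteins are given at 50 nM in the sample labels, and the study's methods give harvest on day 5. The values are TPM, RSEM's transcript abundances corrected for length and scaled to the same total in every library. TPM keeps no read depth, so counting error is unknown and precision rests on the spread of 3 libraries. The labels do not say whether the libraries came from separate cultures, so the p-values measure only the spread between these samples. The comparison asks which genes differ between control and SLURP1-treated spheroids.

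MHC class I molecules show short peptides from inside the cell to CD8+ T cells. Peptides are cut by the proteasome, whose constitutive catalytic subunits can be replaced by interferon-induced ones to form the immunoproteasome, and are carried into the endoplasmic reticulum by the TAP1 and TAP2 transporter. There tapasin, encoded by Tapbp, holds empty heavy chains with beta-2-microglobulin beside the transporter, with the help of calreticulin and the disulfide isomerase ERp57. Most of these genes are transcribed in response to interferon, and NLRC5 acts with RFX and NF-Y factors and CREB family members at class I promoters. H2-T23 encodes the heavy chain of Qa-1, which presents leader peptides to the inhibitory receptor NKG2A of natural killer (NK) cells.

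Of these genes, 8 lie on chromosome 17 (GRCm38, GENCODE M21), in the MHC region. Psmb9, Tap1, Psmb8 and Tap2 stand side by side in a block of 34335 bases (chr17:34181987-34216321), in which Psmb9 and Tap1 are transcribed away from each other and the annotated genes overlap by 212 bases. Whether strand was used in counting is not given in the sources used here, so reads in that overlap cannot be told apart. B2m is on chromosome 2 (122147686 to 122153083, plus strand) and Nlrc5 on chromosome 8 (94434356 to 94527272, plus strand). Outside the block, Tapbp lies at 33915899 to 33929292 (plus strand), H2-K1 at 33996017 to 34000347 (minus strand), H2-D1 at 35262730 to 35267499 (plus strand) and H2-T23 at 36029773 to 36032855 (minus strand).

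Promoter sequence was available in RefSeq (GRCm38.p6) for 8 of the 10 genes, as windows of 300 bases around each transcript start. Tap2 and Nlrc5 had no entry. Class I promoters are known for an SXY module, in which an X2 box (TGACG) and a Y box (ATTGG) stand at a fixed distance. The windows of B2m, H2-D1 and H2-K1 held TGACG followed after 20 bases by ATTGG, and of the other class I heavy chain genes H2-M3 did. This arrangement, searched on both strands and chosen after these promoters had been read, was found in 31 of 32851 windows (0.0944%). The 4 stretches are shown because their 2 boxes, in capitals, stand at the same distance:
H2-K1 (chr17:34000359-34000388, minus strand): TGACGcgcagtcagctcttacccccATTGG
H2-D1 (chr17:35262993-35263022, plus strand): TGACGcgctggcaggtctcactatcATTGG
B2m (chr2:122147609-122147638, plus strand): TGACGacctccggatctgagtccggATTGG
H2-M3 (chr17:37270188-37270217, plus strand): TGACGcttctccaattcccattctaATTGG
H2-K1 and H2-D1 shared 23 of the 30 bases, whereas H2-K1 and B2m shared 13.

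Upstream of this module, the windows of H2-K1 and H2-D1 each held an NF-kB type motif (GGGGATTCC, in 0.25% of all windows) and an interferon response motif in the form GAANTGAAA (in 1.83% of all windows), here on the opposite strand. Of the other class I heavy chain genes, H2-Q6 and H2-Q7 held both motifs, and H2-M3, H2-Q4 and H2-Q10 the interferon response motif. Both stretches are shown, with the motifs in capitals, because 29 of their 30 bases were identical:
H2-K1 (chr17:34000429-34000458, minus strand): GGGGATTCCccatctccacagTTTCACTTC
H2-D1 (chr17:35262923-35262952, plus strand): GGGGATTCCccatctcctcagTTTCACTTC
The interferon response core GAAANNGAA (in 8.56% of all windows) was found in the windows of B2m and H2-T23, and none of the 8 genes had both forms. For H2-T23 it lay on the opposite strand:
H2-T23 (chr17:36032805-36032834, minus strand): tcctactgctTTCTCTTTCataaagacaca
The 150 bases before the B2m start hold the interferon motif and both boxes in the same order as in H2-K1 and H2-D1:
B2m (chr2:122147537-122147686, plus strand): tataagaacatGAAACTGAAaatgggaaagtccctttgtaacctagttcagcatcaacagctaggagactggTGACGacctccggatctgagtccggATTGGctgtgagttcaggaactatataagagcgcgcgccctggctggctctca
One further motif was searched, TTCNNNGAA (in 8.3% of all windows). It was found in the window of Psmb8, which held none of the other motifs, and in that of H2-M3. The windows of Tap1, Tapbp and Psmb9 held none of the motifs searched. A match describes the letters only.

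Of the 10 genes, 8 had a TPM of at least 1 in all 6 libraries, Psmb9 reached it only with rGST, and Nlrc5 in 1 library. With rGST, B2m was highest, followed by H2-T23, Tapbp, H2-K1, H2-D1, Psmb8, Tap2, Tap1, Psmb9 and Nlrc5, and in this order the ranges of neighbouring genes overlapped for Psmb8 and Tap2. With rSLURP1 the order was B2m, Tapbp, H2-K1, H2-T23, H2-D1, Tap2, Psmb8, Tap1, Nlrc5 and Psmb9, with overlapping ranges for Tapbp and H2-K1. Treatments were compared with limma on log2(TPM + 1) in the 12301 genes that reached 1 TPM in 3 or more libraries, with Benjamini-Hochberg adjustment over all of these. Of the 10 genes, 9 were tested, and all 9 were lower with rSLURP1 at an adjusted p of 0.05 or less, with no overlap between the treatments. Of all tested genes, 58.5% were called lower and 8.66% higher, and 61.7% had every rSLURP1 library below every rGST library. The median log2 fold change of the 9 genes was -1.11, against -0.33 for all tested genes, a difference of -0.79. A log2 fold change of -1 or below was reached by 6 of the 9 genes, Psmb9 among them, and, with the same adjusted p, by 7.06% of all tested genes. Median-ratio scaling, which divides a library by the median of its genes' ratios to their geometric means, moved the median of all genes from -0.33 to -0.0012. With it, 25.2% of all tested genes were called lower and 26% higher, and the 9 genes were again lower, with log2 fold changes from -2.56 for Psmb8 to -0.30 for B2m (limma adjusted p = 0.00217 for B2m). Psmb9 passed the filter through its rGST libraries alone and so had to differ. The 8 genes at 1 TPM or more in all libraries were all called lower. Their median was -1.44, or -1.09 with median-ratio scaling.

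**Figure D1:**
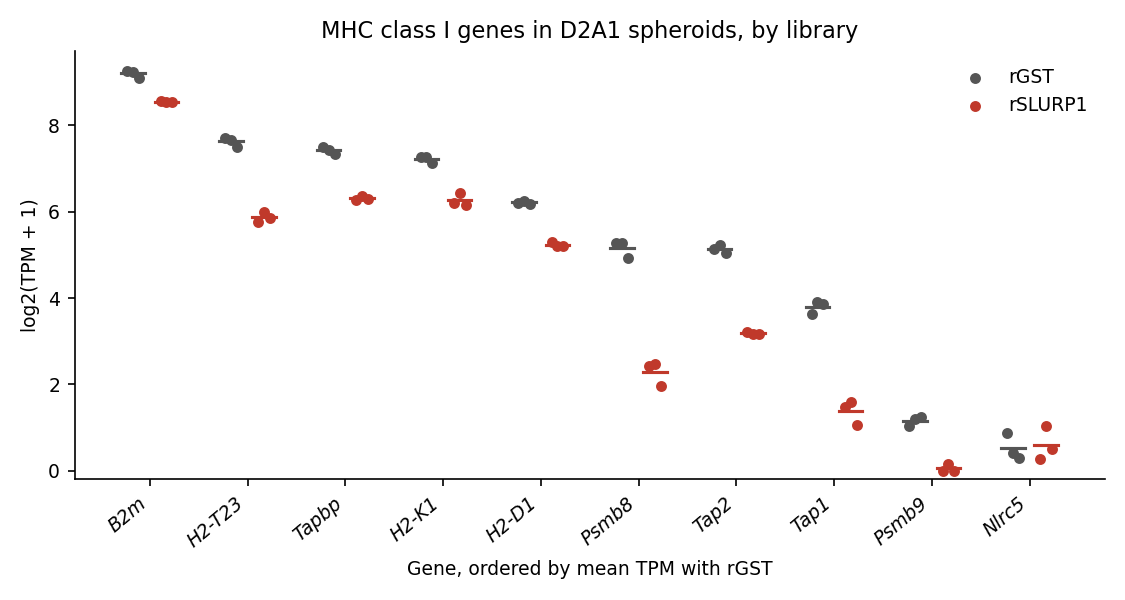
Level of each of the 10 MHC class I genes, as log2(TPM + 1), in every library. Points are libraries (3 rGST in grey, 3 rSLURP1 in red), short lines are group means, and genes are ordered by their mean TPM with rGST. The groups are apart for every gene except Nlrc5.

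H2-K1 and H2-D1 encode the classical heavy chains that present peptides to CD8+ T cells. In TPM as deposited, both were near 50% of their control level with rSLURP1. Median-ratio scaling gave smaller decreases, with log2 fold changes of -0.61 for H2-K1 and -0.63 for H2-D1. H2-K1 (ENSMUSG00000061232.15) had 153.81, 153.45 and 139.73 TPM in the rGST libraries and 72.25, 85.70 and 70.53 in the rSLURP1 libraries. The highest rSLURP1 library, replicate 2, remained well below the lowest rGST library. H2-K1 had a mean of 149.0 ± 8.03 TPM in rGST and 76.2 ± 8.31 in rSLURP1 spheroids (SD, n = 3 each), or 51.1% of control, and its log2 fold change on the log2(TPM + 1) scale was -0.96 ± 0.080 (SE, limma adjusted p = 4.05e-05). H2-D1 (ENSMUSG00000073411.11) had 72.52, 75.55 and 71.66 TPM with rGST and 38.14, 36.07 and 35.91 with rSLURP1. Its libraries were tight within each treatment, at 73.2 ± 2.04 against 36.7 ± 1.24 TPM (SD, n = 3 each), or 50.1% of control, and its log2 fold change was -0.98 ± 0.048 (SE, limma adjusted p = 3.86e-06). D2A1 is derived from BALB/c mice, which carry other alleles of these genes than the C57BL/6 reference. Class I heavy chain genes are near-identical in part, so the split of reads among them is uncertain. The 17 class I heavy chain rows with an H2 symbol that were looked up summed to 596.8 ± 28.5 TPM in rGST and 256.6 ± 17.4 in rSLURP1 spheroids (SD, n = 3 each), or 43.0% of control. H2-L is not analysed here.

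H2-T23 (ENSMUSG00000067212.8), the Qa-1 heavy chain, had the largest decrease among the 3 heavy chain genes, from 209.53, 202.25 and 180.58 TPM with rGST to 53.30, 62.95 and 56.59 with rSLURP1. The rSLURP1 libraries stood at 29.2% of control, 57.6 ± 4.91 against 197.5 ± 15.1 TPM (SD, n = 3 each). On the log2 scale the change of H2-T23 was -1.76 ± 0.077 (SE, limma adjusted p = 2.48e-06). H2-T23 was thereby above H2-K1 in every rGST library and below it in every rSLURP1 library.

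B2m (ENSMUSG00000060802.8), the light chain that all these heavy chains need, had the smallest decrease of the 9 tested genes. It was measured at 614.25, 602.90 and 549.03 TPM with rGST and at 378.92, 369.71 and 372.06 with rSLURP1. The rSLURP1 libraries differed by less than 10 TPM among themselves and lay at 63.5% of control (588.7 ± 34.8 against 373.6 ± 4.79 TPM, SD, n = 3 each). Its log2 fold change was -0.65 ± 0.048 (SE, limma adjusted p = 2.24e-05), or -0.33 relative to the median of all tested genes. Within each library, the log2 ratio of H2-K1 plus H2-D1 to B2m was -1.44, -1.40 and -1.38 with rGST and -1.78, -1.60 and -1.81 with rSLURP1. The ratio was therefore lower by 0.32 log2 units on average in rSLURP1 spheroids (-0.32), without overlap between treatments. The exact permutation test gave a two-sided p of 0.1, which is the smallest that 3 libraries against 3 allow.

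Tap1 and Tap2 encode the subunits of the peptide transporter. Tap1 (ENSMUSG00000037321.17) had 11.34, 14.09 and 13.55 TPM with rGST and 1.77, 2.01 and 1.10 TPM with rSLURP1, so that every treated library was near the level of the filter. It fell from 12.99 ± 1.46 to 1.63 ± 0.472 TPM (SD, n = 3 each), which is 12.5% of control, with a log2 fold change of -2.42 ± 0.158 (SE, limma adjusted p = 1.35e-05). Tap2 (ENSMUSG00000024339.12) had 34.37, 36.55 and 31.81 TPM with rGST and 8.28, 7.95 and 8.03 TPM with rSLURP1. The treated libraries were almost equal at 8.09 ± 0.172 TPM against 34.2 ± 2.37 with rGST (SD, n = 3 each), or 23.6% of control. The log2 fold change of Tap2 was -1.95 ± 0.071 (SE, limma adjusted p = 1.01e-06). Of all 12301 tested genes, 91 had a lower log2 fold change than Tap1 and 186 a lower one than Tap2.

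Tapbp (ENSMUSG00000024308.14) encodes tapasin, which bridges the transporter and the empty heavy chain. Its level was 179.05, 172.19 and 159.80 TPM with rGST and 75.81, 81.29 and 77.50 TPM with rSLURP1. With 170.3 ± 9.76 against 78.2 ± 2.81 TPM (SD, n = 3 each), it fell to 45.9% of control, and its log2 fold change was -1.11 ± 0.053 (SE, limma adjusted p = 3.66e-06).

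Psmb8 and Psmb9 encode the immunoproteasome subunits beta5i and beta1i, which take the place of the constitutive beta5 (Psmb5) and beta1 (Psmb6). Psmb8 (ENSMUSG00000024338.14) had 37.77, 37.48 and 29.56 TPM with rGST and 4.37, 4.53 and 2.92 TPM with rSLURP1. With a pseudocount of 1, it had the lowest log2 fold change of the 9 genes. It stood at 11.3% of control (34.9 ± 4.66 against 3.94 ± 0.887 TPM, SD, n = 3 each). Its change on the log2(TPM + 1) scale was -2.87 ± 0.156 (SE, limma adjusted p = 6.23e-06), and 52 of all tested genes had a lower one. Psmb9 (ENSMUSG00000096727.2) was close to the filter in control spheroids, with 1.04, 1.31 and 1.37 TPM, and in the rSLURP1 libraries it was at 0.12 TPM in replicate 2 and listed at 0 in the other 2. It was tested only because of its rGST libraries and so had to differ. Its log2 fold change of -1.11 ± 0.167 (SE, limma adjusted p = 7.68e-04) understates the change at this level. With a pseudocount of 0.1 the value of Psmb9 became -3.36, below the -3.13 of Psmb8 with the same pseudocount.

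Nlrc5 (ENSMUSG00000074151.13), the class I transactivator, was near the lower end of the measured range, with 0.83, 0.32 and 0.22 TPM with rGST and 0.20, 1.05 and 0.42 TPM with rSLURP1. The treatments overlapped, and the gene did not pass the filter on low values. Without the filter, its log2 fold change was 0.08 ± 0.247 (SE, limma adjusted p = 0.834). A difference in Nlrc5 was not detectable at this level.

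**Figure D2:**
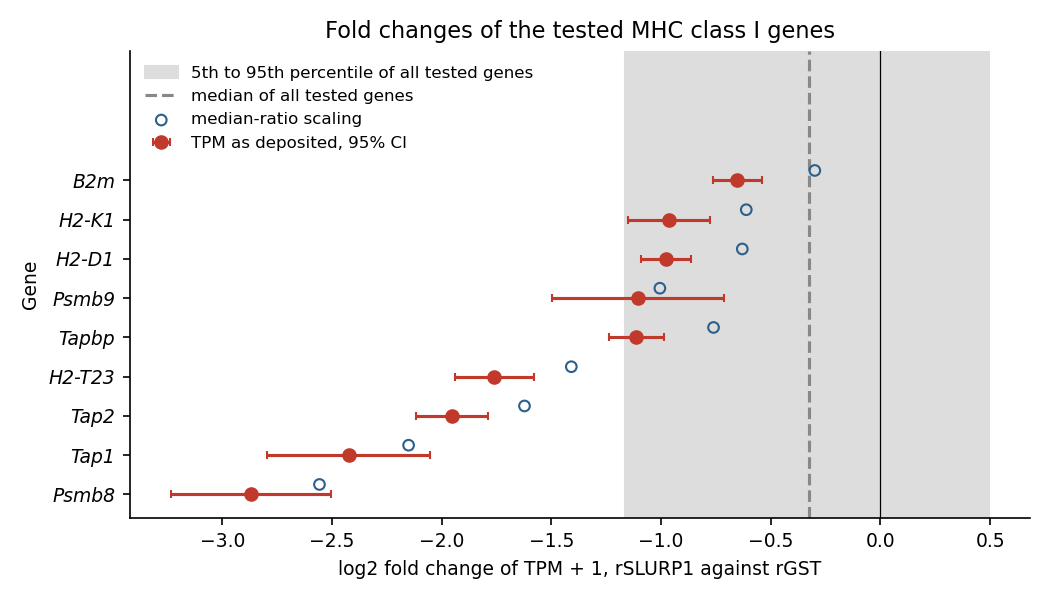
Log2 fold change of the 9 tested genes on the log2(TPM + 1) scale, rSLURP1 against rGST. Red points with 95% confidence intervals are from the TPM as deposited, and open circles from median-ratio scaling. The grey band spans the 5th to 95th percentile of all tested genes (-1.16 to 0.49). Band and dashed median (-0.33) are from the TPM as deposited, so only the red points compare with them. With median-ratio scaling the median of all tested genes was -0.0012. The red points of Psmb8, Tap1, Tap2 and H2-T23 lie below the band, and that of B2m is nearest to the dashed median.

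The third induced subunit, Psmb10 (beta2i), is known to be assembled together with the products of Psmb8 and Psmb9. It fell from 114.4 ± 9.52 to 49.9 ± 3.50 TPM (SD, n = 3 each), and the log2 fold change was -1.18 ± 0.075 (SE, limma adjusted p = 1.15e-05). The constitutive subunits stayed within 10% of their control means. Psmb5 had 256.7 ± 14.9 TPM with rGST and 278.8 ± 17.2 with rSLURP1, Psmb6 had 341.8 ± 13.2 and 319.2 ± 8.49, and Psmb7 (beta2) had 276.3 ± 9.10 and 252.7 ± 3.95 (SD, n = 3 each). Their log2 fold changes were 0.12 (95% interval -0.022 to 0.26), -0.098 (-0.19 to -0.0016) and -0.13 (-0.22 to -0.040), with limma adjusted p-values of 0.116, 0.0677 and 0.0178. With median-ratio scaling these 3 values were 0.47, 0.26 and 0.23, so the sign of Psmb6 and Psmb7 depends on the scaling, whereas Psmb10 remained lower (-0.83). Without rGST replicate 3 or rSLURP1 replicate 1, Psmb5 was called higher (0.17 in both, limma adjusted p = 0.0459 and 0.0344), and without rGST replicate 3 or rSLURP1 replicate 3, Psmb7 was not called (limma adjusted p = 0.0571 and 0.0550).

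A ratio of 2 genes within a library does not depend on how that library was scaled, as long as no pseudocount is added. The log2 ratio of Psmb8 to Psmb5 was -2.70, -2.74 and -3.21 with rGST and -5.89, -6.01 and -6.61 with rSLURP1. The mean difference of Psmb8 to Psmb5 was -3.29. The log2 ratio of Psmb10 to Psmb7 was -1.29, -1.12 and -1.41 with rGST and -2.23, -2.37 and -2.43 with rSLURP1, a mean difference of -1.07. In both ratios the treatments did not overlap, and the exact permutation test gave a two-sided p of 0.1 for each, or 0.1 after adjustment over the 4 ratios compared. Psmb8 and Psmb10 were thus lower relative to their constitutive counterparts in every rSLURP1 library than in any rGST library. For Psmb9 to Psmb6, a pseudocount was needed because of the values at 0 and set the size of the mean difference, which was -1.01 with a pseudocount of 1 and -3.26 with 0.1. Since Psmb9 was tested only because of its rGST libraries, its ratio is given as a description.

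**Figure D3:**
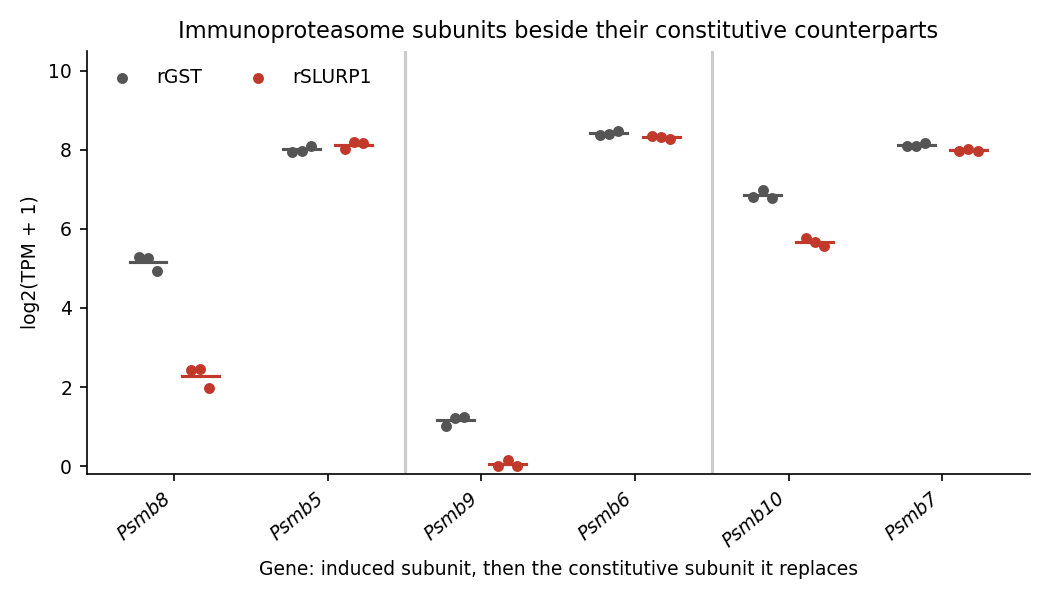
Level of the 3 immunoproteasome subunits, each beside the constitutive subunit it replaces, as log2(TPM + 1) in every library. Points are libraries (rGST in grey, rSLURP1 in red) and lines are group means. Psmb8, Psmb9 and Psmb10 are lower with rSLURP1, and Psmb5, Psmb6 and Psmb7 stay near their control level.

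The proteasome activator PA28, encoded by Psme1 and Psme2, is also interferon-induced. Psme1 fell from 305.0 ± 12.96 to 178.7 ± 12.1 TPM (SD, n = 3 each), and the log2 fold change was -0.77 (limma adjusted p = 2.66e-05). Psme2 fell from 368.4 ± 37.3 to 244.7 ± 52.9 TPM (SD, n = 3 each), with the rSLURP1 libraries spread from 210.46 to 305.69, and its log2 fold change of -0.60 (limma adjusted p = 0.00697) became -0.25 (adjusted p = 0.201) with median-ratio scaling. Of the 9 tested genes in the list of catalytic subunits and activators, 6 were lower and 0 higher. With median-ratio scaling 2 were lower and 6 higher. Shares of all tested genes were 58.5% lower and 8.66% higher, or 25.2% and 26% with median-ratio scaling. The list median log2 fold change of -0.16 lay 0.17 above the median of all tested genes.

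Besides H2-K1, H2-D1 and H2-T23, 17 class I heavy chain genes were looked up, of which 13 were tested, and 12 of these were lower and 0 higher. With median-ratio scaling 8 were lower and 0 higher. Among all tested genes, 58.5% were called lower and 8.66% higher as deposited, and 25.2% and 26% after that scaling. As deposited, the 13 heavy chain genes had a median of -0.85 in log2 fold change. For all tested genes it was -0.33, a difference of -0.52. H2-T24 had the largest decrease, from 13.51 to 16.26 TPM with rGST to 1.22 to 1.49 TPM with rSLURP1 (log2 fold change -2.76, limma adjusted p = 1.64e-06). H2-Q4 and H2-T22 had log2 fold changes of -1.24 and -0.93 (limma adjusted p = 8.05e-06 and 4.56e-05). H2-M3, which shares the X2 and Y box spacing printed above and presents formylated peptides, was at 31.6 ± 0.787 TPM in rGST and 26.5 ± 1.75 in rSLURP1 spheroids (SD, n = 3 each). Its log2 fold change of -0.25 (limma adjusted p = 0.00951) was 0.095 (adjusted p = 0.186) with median-ratio scaling. H2-M3 was named after its values were seen.

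Calr and Pdia3, which encode chaperones of the endoplasmic reticulum that serve class I loading among other proteins, were not called in either direction. Calr (calreticulin) had 912.9 ± 25.99 TPM with rGST and 928.0 ± 21.2 with rSLURP1, and Pdia3 (ERp57) had 483.5 ± 7.998 and 486.1 ± 2.71 TPM (SD, n = 3 each). Their log2 fold changes were 0.02 (95% interval -0.061 to 0.11, limma adjusted p = 0.583) and 0.0079 (-0.065 to 0.081, limma adjusted p = 0.834). With median-ratio scaling both were called higher (0.38 and 0.36), and with quantile normalization Calr was at -0.048 (adjusted p = 0.323). Canx (calnexin), which folds heavy chains before B2m joins, rose from 393.2 ± 12.6 to 457.0 ± 10.6 TPM (SD, n = 3 each, log2 fold change 0.22, limma adjusted p = 0.00164). Erap1, the aminopeptidase that trims peptides to class I length inside the endoplasmic reticulum, fell from 21.8 ± 3.10 to 8.98 ± 0.698 TPM (SD, n = 3 each, log2 fold change -1.19, limma adjusted p = 7.25e-05). Tapbpl, a tapasin relative that edits peptides, fell with a log2 fold change of -0.46 (limma adjusted p = 8.76e-05), and the cytosolic aminopeptidase gene Lap3 rose with 0.43 (limma adjusted p = 1.68e-04). The call of Tapbpl was lost with median-ratio scaling (-0.11, limma adjusted p = 0.0787). Over this list of 15 loading and trimming genes, 7 were lower and 3 higher, with a median log2 fold change of -0.11. With median-ratio scaling 1 was lower and 8 were higher. Shares of all tested genes were 58.5% lower and 8.66% higher, or 25.2% and 26% with median-ratio scaling.

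**Figure D4:**
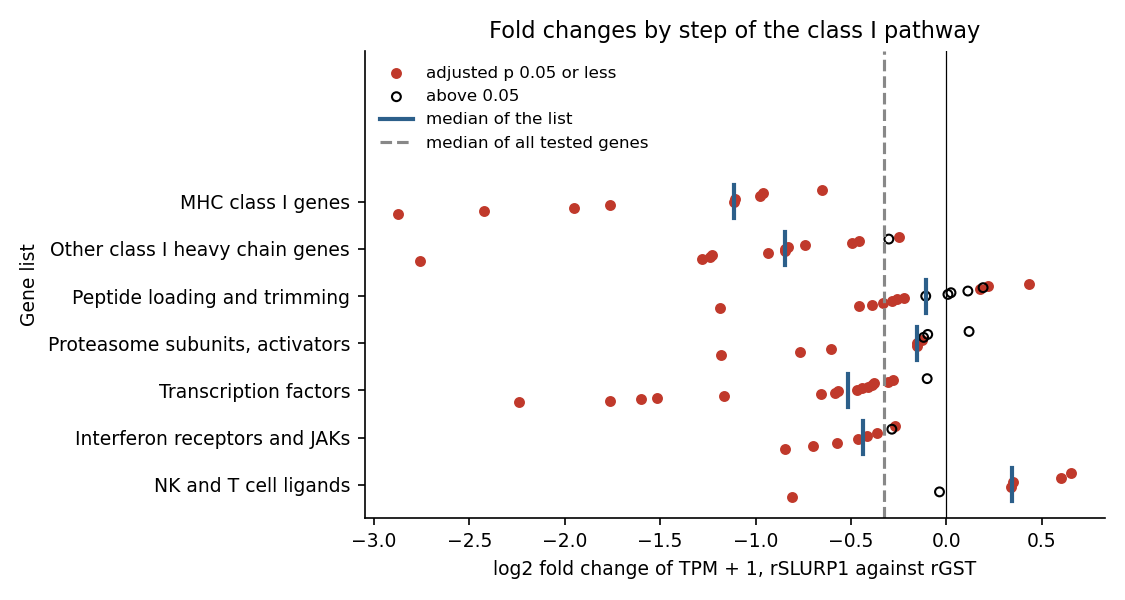
Log2 fold changes on the log2(TPM + 1) scale, rSLURP1 against rGST, for the tested genes of each list. Each point is a gene (filled at a limma adjusted p of 0.05 or less), blue bars are list medians, and the dashed line is the median of all tested genes at -0.33. The MHC class I genes have a median of -1.11, and the loading and trimming genes one of -0.11.

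Transcription factors that act on class I genes were also measured. Irf1, which binds interferon response elements, had 113.57, 121.13 and 109.37 TPM with rGST and 32.81, 31.62 and 34.68 TPM with rSLURP1 (log2 fold change -1.76, limma adjusted p = 5.89e-07). Irf9, a DNA-binding factor of type I interferon signalling, had a log2 fold change of -1.60 (limma adjusted p = 4.17e-06). Rfx5, a subunit of the RFX complex that binds the X box, fell from 28.6 ± 2.03 to 12.2 ± 0.242 TPM (SD, n = 3 each, log2 fold change -1.16, limma adjusted p = 9.52e-06). Ciita, the class II transactivator, was at 0.09 TPM or less in every library. Of the 16 tested genes in this list, 15 were lower and 0 higher, and with median-ratio scaling 6 were lower and 1 higher. Shares of all tested genes were 58.5% lower and 8.66% higher, or 25.2% and 26% with median-ratio scaling. The list had a median log2 fold change of -0.52, against -0.33 for all tested genes, a difference of -0.19.

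Of 8 tested interferon receptor, JAK and SOCS genes, 7 were lower and 0 higher, and with median-ratio scaling 3 were lower and 0 higher. Shares of all tested genes were 58.5% lower and 8.66% higher, or 25.2% and 26% with median-ratio scaling. The list median log2 fold change was -0.44, against -0.33 for all tested genes, a difference of -0.11. Ifngr1, the ligand-binding chain of the interferon-gamma receptor, fell from 27.4 ± 1.65 to 16.5 ± 0.881 TPM (SD, n = 3 each, log2 fold change -0.70, limma adjusted p = 1.01e-04). Socs1, a feedback inhibitor that interferon induces, had a log2 fold change of -0.85 (limma adjusted p = 1.65e-04), and the receptor kinase gene Jak1 one of -0.46 (limma adjusted p = 1.69e-04). The call of Jak1 was lost with median-ratio scaling (-0.11, limma adjusted p = 0.0742). Ifng was listed at 0 in all 6 libraries, and Ifnb1 was listed at 0 in all but rGST replicate 2 (Ifnb1 0.34 TPM).

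The block of Psmb9, Tap1, Psmb8 and Tap2 is flanked by class II genes. Within 50 kb of the block, H2-DMa, which encodes a chain of the class II peptide editor, was the only other protein-coding gene that passed the filter. H2-DMa rose from 7.53 ± 0.380 to 14.7 ± 2.83 TPM (SD, n = 3 each), and the log2 fold change was 0.86 (limma adjusted p = 7.52e-04), opposite in direction to the 4 class I genes beside it. Of 9 class II genes looked up, 6 were listed at 0 in all libraries, among them H2-Aa, H2-Ab1 and H2-Eb1.

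Of 6 tested genes for ligands by which tumor cells engage immune cells, 1 was lower and 4 were higher. These counts held as deposited and with median-ratio scaling or quantile normalization. The share of all tested genes called higher was 8.66% as deposited, 26% with median-ratio scaling and 25.3% with quantile normalization. In the same order, 58.5%, 25.2% and 23.6% were called lower. Cd274 (PD-L1), which is interferon-induced, fell from 29.2 ± 1.22 to 16.3 ± 1.91 TPM (SD, n = 3 each, log2 fold change -0.81, limma adjusted p = 1.57e-04). H60b, a ligand of the activating receptor NKG2D, rose from 29.3 ± 2.64 to 44.9 ± 1.90 TPM (SD, n = 3 each, log2 fold change 0.60, limma adjusted p = 2.53e-04). Ulbp1, the other NKG2D ligand tested, was not called, with 7.42 TPM in rGST and 7.18 in rSLURP1 spheroids (log2 fold change -0.036, limma adjusted p = 0.875). Nectin2, listed under its older symbol Pvrl2, had a log2 fold change of 0.34 (limma adjusted p = 4.07e-04). Pvr and Cd47, which make up the 4 with H60b and Nectin2, had log2 fold changes of 0.65 and 0.35.

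The genes whose pattern over the 6 libraries was most like the mean standardised profile of the 9 tested genes were Tpp2, Lbh, Add3, Arhgap28 and Gtf3c1, with Pearson correlations of 0.99979, 0.99978, 0.99971, 0.99964 and 0.99964. Likeness here follows mainly the difference between the treatments, since 1183 other tested genes had a correlation of at least 0.99. Tpp2 encodes a cytosolic peptidase that shortens proteasome products and was also in the loading and trimming list. It went from 65.3 ± 0.704 to 54.4 ± 0.519 TPM (SD, n = 3 each), and the log2 fold change was -0.26 (limma adjusted p = 8.09e-04), which lies 0.065 above the median of all tested genes.

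The cell type named in the labels was checked against marker genes. Krt18 was between 191.1 and 199.4 TPM in all libraries. Vim, a mesenchymal marker, fell from 1259 ± 78.4 to 664.5 ± 30.3 TPM (SD, n = 3 each). Its log2 fold change was -0.92 (limma adjusted p = 9.52e-06), or -0.57 with median-ratio scaling. Krt8 was low and fell from 1.56 ± 0.140 to 0.697 ± 0.163 TPM (log2 fold change -0.60, limma adjusted p = 0.00968), a call lost with median-ratio scaling (adjusted p = 0.0554). Krt8 passed the filter through its rGST libraries alone. Cd44 rose, with log2 fold changes of 0.37 (limma adjusted p = 0.00137) and of 0.72 with median-ratio scaling. Epcam, Krt5 and Krt14 were listed at 0 and Cdh1 did not exceed 0.07 TPM, so epithelial markers other than Krt18 were absent or low. Of 13 immune cell markers, 6 were listed at 0 in all libraries, the pan-leukocyte gene Ptprc did not exceed 0.01 TPM, and the 1 that passed the filter was Cd68, a lysosomal gene of macrophages and other cells. The summed level of the 13 markers was 3.61 to 4.20 TPM with rGST and 8.17 to 10.7 TPM with rSLURP1, of which Cd68 made up 3.57 to 4.07 and 7.75 to 10.6 TPM, and so moved opposite to the class I genes. In bulk RNA, fewer cells that express a gene and less RNA of that gene per cell cannot be told apart. Between 11906 and 12449 genes reached a TPM of 1 per library, fewer in each rSLURP1 library than in each rGST library, and the top 10 genes took 11.7% to 12.6% of all TPM in rGST libraries against 13.5% to 15.4% in rSLURP1 libraries. The part of these differences in the results was not tested.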

How the data were processed

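RNAseq was analysed for 6 libraries of D2A1 spheroids, grouped by the sample titles. The authors trimmed reads with Cutadapt (version 1.18 in the submitters' processing notes), aligned them to mm10 with STAR (2.5.2b) and estimated genes with RSEM (1.3.3), and deposited TPM, 1 column per library. The methods name GENCODE M12, and coordinates were taken from GENCODE M21 on the same build, in which all 10 genes were matched by identifier without version. For library preparation, a TruSeq kit is named in the labels and Smart-seq2 in the methods.

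From the TPM, log2(TPM + 1) was tested with limma 3.58.1 (R 4.3.3, eBayes with trend) for genes that reached 1 TPM in 3 or more libraries, called at an adjusted p of 0.05. Log2 ratios within libraries were compared with exact two-sided permutation tests (scipy 1.17.1). The script was tested on simulated data. Alternatives were other pseudocounts, filters and scalings, no trend, no mitochondrial genes, a replicate block and leaving out each library. The members and lists were chosen with earlier results of these data known. All members are named, and from other lists the 3 genes with the smallest p and direct partners of the members. Of the genes this rule names, 1 is not reported here. Genes named outside this rule, chosen after their values were seen, are H2-M3, Ulbp1, Pvr, Cd47, Ifng, Ifnb1, some class II genes and the markers. TPM carries no depth, so counting error could not be given. For the ratio of Psmb9 to Psmb6 a pseudocount of 1, not planned, was needed because of values at 0.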

Additional observations from a re-analysis of the deposited data

How the results depend on the processing

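The 9 tested MHC class I genes kept their direction and an adjusted p of 0.05 or less in all 125 alternative values computed for them. These include values of Psmb9, which was tested only because of its rGST libraries and so had to differ. The filter on all 6 libraries left the other 8 genes, and all 8 were called lower. With that filter, 61.3% of all tested genes were called lower, the largest share among the alternatives. The smallest share was 23.6%, with quantile normalization. The median log2 fold change of the tested MHC class I genes was -1.78 with a pseudocount of 0.1 and -1.44 with the filter on all 6 libraries. It was -1.01 with median-ratio scaling and -0.90 with quantile normalization. The last pair are the values of Psmb9 itself, and without it the median of the other 8 genes was -1.09 with median-ratio scaling and -1.19 with quantile normalization (chosen after seeing the data). Those scalings gave 3094 lower and 3198 higher, and 2905 lower and 3111 higher, of all tested genes. With median-ratio scaling and quantile normalization in turn, lower calls numbered 1 and 2 (8 and 6 higher) among loading and trimming genes, 2 and 3 (6 and 3 higher) among proteasome genes, 6 and 6 (1 and 1 higher) among transcription factors, and 3 and 2 among interferon receptor genes. Without the trend, 3 proteasome genes were lower. Without the filter, 2 class II genes were higher. The log2 fold change turned positive for Psmb6 (0.26 and 0.054) and Psmb7 (0.23 and 0.042) with the 2 scalings and negative for Calr (-0.048) with quantile normalization. Leaving out 1 library gave 0 to 1 higher proteasome genes (1 without rGST replicate 3 or rSLURP1 replicate 1), and Pdia3 then ranged from -0.0050 (without rGST replicate 3) to 0.019. The cause of these shifts was not tested. In a fit with a replicate block, 6954 genes were called lower, 1008 higher and all 9 MHC class I genes lower. Deviations of same-numbered libraries correlated at -0.061 to -0.034 across genes, and those of differently numbered libraries at 0.0075 to 0.048. No deviation shared by same-numbered libraries was visible. With 3 libraries per group, this check cannot tell whether the libraries were paired. Without depth, low values such as Psmb9, Tap1 with rSLURP1 and Nlrc5 have the least certain fold changes.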
